A study of Mus musculus with 4 samples.

Results

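The genes described here are 6 T-box transcription factors of the developing limb, *Tbx2*, *Tbx3*, *Tbx4*, *Tbx5*, *Tbx15* and *Tbx18*, together with the homeobox gene *Pitx1*. They were chosen by symbol, as a named set of limb identity and patterning regulators, and make up 7 of the 23284 genes in the count files. RNA was sequenced from GFP-positive live cells sorted from the limbs of E13.5 C57BL/6J mouse embryos, 2 Osr1 GCE/+ and 2 Osr1 GCE/GCE. GCE is a knock-in of GFP and an inducible Cre (CreERt2) at the *Osr1* locus. The GCE/+ controls carry 1 such allele, the GCE/GCE embryos are *Osr1* mutants, and no wild-type cells were compared. By the study's methods the cells came from 2 embryos of each genotype, and the labels give the tissue as limbs without separating forelimbs from hindlimbs. The sort was on GFP expressed from the *Osr1* locus, so it was aimed at the limb cells that use the *Osr1* promoter.

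T-box proteins share a conserved DNA-binding domain, the T-box. *Tbx5* is expressed in the forelimb and *Tbx4* in the hindlimb, where *Pitx1* acts upstream of *Tbx4*, and the pair of T-box genes is also used in limb connective tissue during muscle patterning. *Tbx2* and *Tbx3* encode repressors expressed at the margins of the limb bud, and *Tbx15* and *Tbx18* encode closely related factors of the limb mesenchyme. The question is whether these genes, and the balance of forelimb against hindlimb genes, differed between GCE/+ cells and cells that carry GCE on both *Osr1* alleles.

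The T-box genes resemble each other in sequence, so the exact runs that they share were compared with the read length of 50 bases. For the *Tbx15* and *Tbx18* pair, a stretch of coding sequence of 60 bases is printed from spliced GENCODE transcripts. It is centred on the longest run that the coding sequences of both genes share, and capitals mark that run.
Tbx15: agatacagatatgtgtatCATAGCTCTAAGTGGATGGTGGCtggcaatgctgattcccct
Tbx18: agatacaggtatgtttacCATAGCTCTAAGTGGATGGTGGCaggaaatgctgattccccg
The shared run was 23 bases long, and 54 of the 60 bases were identical across the printed stretches. It lies in coding exon sequence of GRCm38, in *Tbx15* on chromosome 3 from 99314754 to 99314776 (plus strand, exon 4) and in *Tbx18* on chromosome 9 from 87724441 to 87724463 (minus strand, exon 4). Over whole transcripts, 83 pairs of T-box genes or of Pitx genes that include at least 1 of the 7 genes were compared, and 0 shared a run of 50 bases. The longest run was the 42 bases shared by *Tbx5* and *Tbx22*. Only exact runs were compared, and how the aligner assigned reads was not tested.

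In GRCm38.p6, *Tbx2* (chromosome 11, 85832615 to 85841948) and *Tbx4* (chromosome 11, 85886367 to 85916097) are neighbours, 44.4 kb apart. *Tbx3* (chromosome 5, 119670534 to 119684724) and *Tbx5* (chromosome 5, 119796514 to 119885220) are neighbours likewise, 112 kb apart. *Tbx15* lies on chromosome 3 (99240348 to 99354260), *Tbx18* on chromosome 9 (87702800 to 87731260) and *Pitx1* on chromosome 13 (55825044 to 55836190). Exons of 3 of the genes overlap transcripts of the other strand that the count files do not list, by 115 bases in *Tbx3*, 165 bases in *Pitx1* and 931 bases in *Tbx18*. The library kit does not mark strand, so reads of these overlaps cannot be assigned to either gene.

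Total counts per sample ranged from 52121596 to 61402140. *Osr1* had 81.9 and 79.1 CPM in the GCE/+ samples against 11.9 and 13.9 CPM in the GCE/GCE samples (CPM, counts per 1000000 after TMM scaling of library sizes), which is the direction the labels give. GCE/GCE replicate 1 stood apart by *Xist*, with 1142 CPM against at most 2.63 CPM elsewhere, so the embryos differed in sex. The mesenchyme marker *Pdgfra* was at 833 to 977 CPM in GCE/+ cells. Markers of other cell types were also present, and none was at 0 in any sample. Summed CPM of 10 cartilage markers were 838 and 1245 in the GCE/+ samples against 1794 and 1918 in the GCE/GCE samples, with 6 of 10 genes past the threshold and higher. Those of 10 macrophage markers were 294 and 303 in the GCE/+ samples against 186 and 131 in the GCE/GCE samples, with 7 of 10 past the threshold and lower. Lists of 9 muscle, 7 endothelial, 8 mural, 9 epidermal and 6 glial genes had 0 genes past the threshold (edgeR, adjusted p under 0.1). At an unadjusted p under 0.05 they had 2, 4, 2, 4 and 0 genes, against 10.5% of tested genes. The 4 endothelial genes, *Pecam1*, *Cdh5*, *Cldn5* and *Egfl7*, were all lower in GCE/GCE cells, while *Tek* was higher in both GCE/GCE samples. The median log2 fold change of the endothelial list was -0.41.

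Corrected for exon length, *Tbx15* was the most abundant of the 7 mRNAs. Its level was 89.0 and 90.5 CPM per kb of exon in the 2 GCE/+ samples. *Tbx18* followed with 28.8 and 30.3 CPM per kb, *Tbx5* with 25.6 and 24.3, *Tbx3* with 16.9 and 19.2, *Pitx1* with 17.7 and 14.1, *Tbx4* with 13.6 and 12.3, and *Tbx2* with 8.16 and 8.27. Of the neighbours in this order, the samples of *Tbx3* and *Pitx1* overlapped and the others did not. These levels use all exon sequence of a gene, and with the length of its longest transcript *Tbx4* (14.7 and 13.3) overlapped *Pitx1* (17.7 and 14.1) as well. In GCE/GCE cells *Tbx15* was again first, at 90.6 and 85.4 CPM per kb, and *Tbx2* last, at 10.5 and 10.6. Between them, *Tbx18* (26.5 and 32.9) overlapped *Tbx5* (23.4 and 28.7). *Tbx4* was above *Pitx1* here, with 15.8 and 18.3 CPM per kb against 12.9 and 15.5. *Tbx3*, at 15.4 and 18.3, overlapped both of them.

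**Figure D1:**
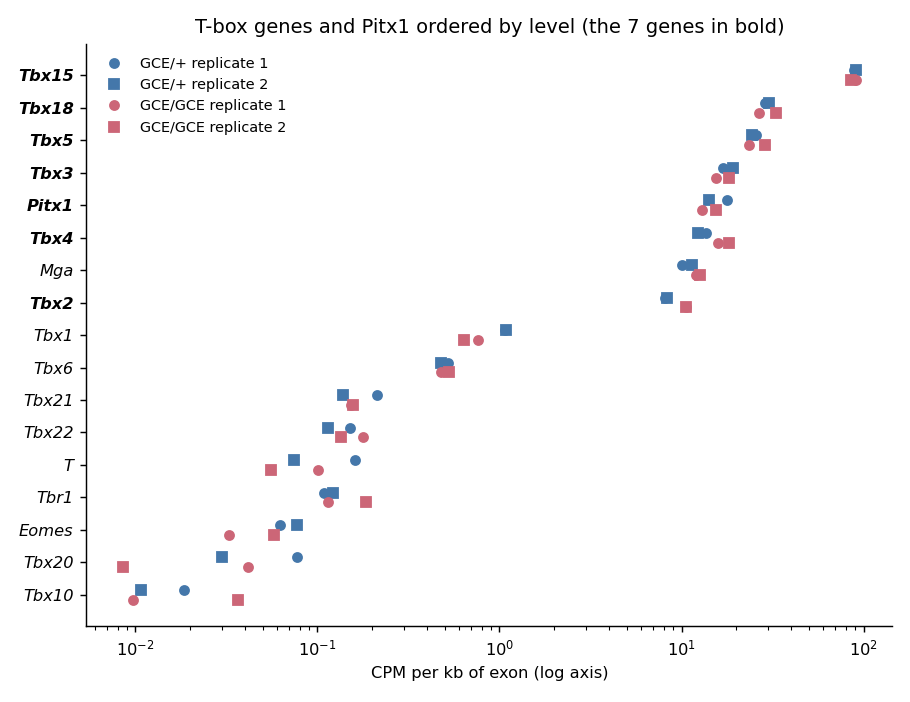
Level of each T-box gene and of *Pitx1* in CPM per kb of exon (log axis), 1 point per sample, ordered by the mean of the 2 GCE/+ samples, with the 7 genes in bold. *Tbx19*, at 0 counts in all 4 samples, is left out. *Tbx15* lies near 90 CPM per kb, and the other 6 genes in bold lie between 8.16 and 32.9.

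All 4 samples expressed the forelimb gene and both hindlimb genes, and all 7 genes passed the filter on low counts. In such bulk samples, fewer cells of a type and less RNA per cell cannot be told apart. Between the genotypes, none of the 7 was past the threshold, an adjusted p of 0.1, in edgeR's quasi-likelihood test, with 1.82% of the 15645 tested genes passing (0.895% higher and 0.927% lower in GCE/GCE cells). At an unadjusted p under 0.05 there were 2 of the 7, *Tbx2* and *Tbx4*, against 10.5% of tested genes. DESeq2, the tool named in the study's methods, called the same 2 genes as run here, against 3.45% of the genes it tested. The study itself states that *Tbx4* and *Tbx5* showed no obvious deregulation in *Osr1*-deficient cells or limbs. The median log2 fold change of the 7 genes was 0.01 and that of all tested genes 0.00. Their median absolute log2 fold change was 0.10, and that of all tested genes was also 0.10.

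*Tbx4*, the hindlimb T-box gene, had 46.4 and 41.8 CPM in the GCE/+ samples against 53.7 and 62.2 CPM in the GCE/GCE samples. Both GCE/GCE samples lay above both GCE/+ samples. The log2 fold change was 0.39 (SE 0.10, 95% interval 0.16 to 0.63), a fold of 1.31, with an adjusted p of 0.149 in edgeR and 0.056 in DESeq2. A larger absolute log2 fold change was found in 13.4% of tested genes. Without GCE/GCE replicate 1 the log2 fold change was 0.49 and the adjusted p from edgeR 0.0322, and without GCE/GCE replicate 2 it was 0.28 with an adjusted p of 0.692.

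*Tbx2*, a repressor gene next to *Tbx4* on chromosome 11, had 29.6 and 30.0 CPM in the GCE/+ samples against 38.1 and 38.3 CPM in the GCE/GCE samples. The groups did not overlap, and the replicates within a group were closer together than for any other of the 7 genes. The log2 fold change was 0.36 (SE 0.09, 95% interval 0.16 to 0.56), a fold of 1.28, with an adjusted p of 0.127 in edgeR and 0.080 in DESeq2. With offsets for each sample's trend on gene length the adjusted p from edgeR was 0.089. It was 0.193 with the replicate number as a block and 0.203 without the filter on low counts. With 1 sample left out at a time the log2 fold change of *Tbx2* ran from 0.34 to 0.37. The ratio of *Tbx2* to *Tbx4* counts overlapped between the genotypes (log2 difference -0.03). Thus *Tbx2* and *Tbx4* were the 2 of 7 genes whose GCE/GCE samples both lay above the GCE/+ samples, as they did in 19.2% of all tested genes (38.4% did not overlap in either direction).

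**Figure D2:**
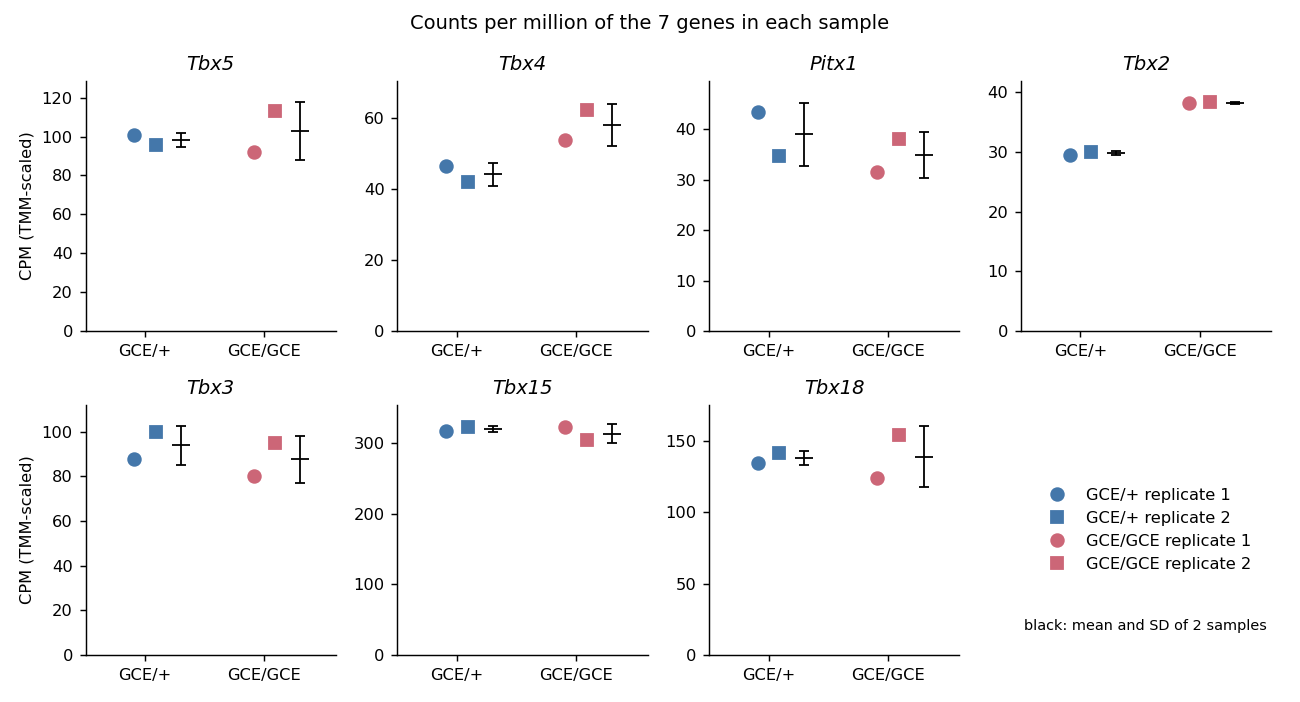
CPM after TMM scaling of each of the 7 genes in every sample (y axes start at 0), with circles for replicate 1, squares for replicate 2 and black bars for the mean and SD of 2 samples. The groups are apart for *Tbx4* and *Tbx2* and overlap for *Tbx5*, *Pitx1*, *Tbx3*, *Tbx15* and *Tbx18*.

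*Tbx5*, the forelimb T-box gene, had 101 and 95.6 CPM in the GCE/+ samples against 92.1 and 113 CPM in the GCE/GCE samples. The GCE/+ values lay between the GCE/GCE values, and the log2 fold change was 0.06 (SE 0.11, 95% interval -0.18 to 0.31, edgeR adjusted p = 0.944). *Pitx1* had 43.3 and 34.6 CPM in the GCE/+ samples against 31.6 and 38.0 CPM in the GCE/GCE samples. GCE/+ replicate 1 was the highest and GCE/GCE replicate 1 the lowest, while the others overlapped. Its log2 fold change was -0.16 (SE 0.13, 95% interval -0.47 to 0.14, edgeR adjusted p = 0.818), and 0.0028 without GCE/+ replicate 1. *Pitx1* had the widest interval of the 7 genes.

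*Tbx3*, the repressor gene next to *Tbx5* on chromosome 5, had 87.7 and 99.9 CPM in the GCE/+ samples against 80.0 and 95.1 CPM in the GCE/GCE samples. Replicate 2 was higher than replicate 1 in either genotype, and the ranges overlapped. The log2 fold change was -0.10 (SE 0.11, 95% interval -0.35 to 0.15, edgeR adjusted p = 0.882).

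*Tbx15* had 317 and 323 CPM in the GCE/+ samples against 323 and 304 CPM in the GCE/GCE samples. It had the narrowest 95% interval of the 7 genes, -0.22 to 0.16 around a log2 fold change of -0.03 (SE 0.08, edgeR adjusted p = 0.969). Its counts, 16886 to 19332 per sample, were also the largest of the set. *Tbx18* had 135 and 142 CPM in the GCE/+ samples against 124 and 154 CPM in the GCE/GCE samples, so that the GCE/GCE values enclosed the others. The log2 fold change was 0.01 (SE 0.11, 95% interval -0.24 to 0.26, edgeR adjusted p = 0.994). With 2 samples a group, a fold within each of these intervals could not be told from no difference.

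**Figure D3:**
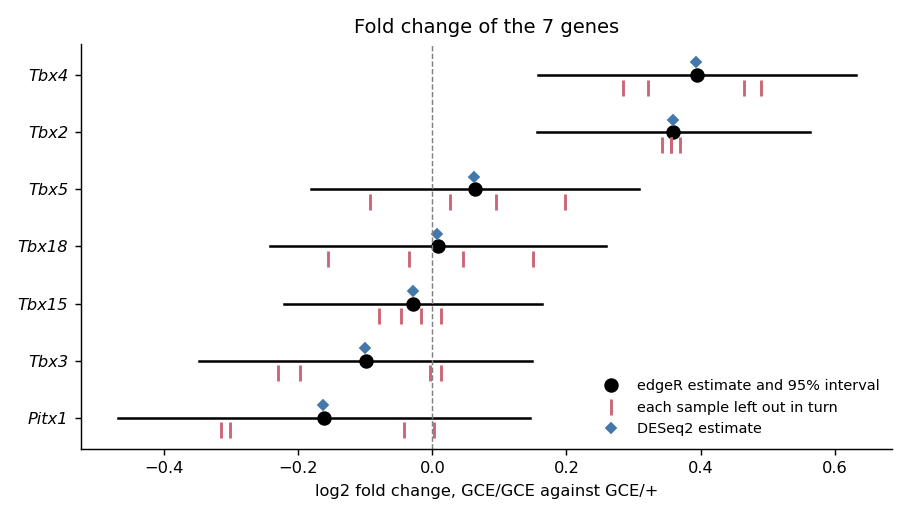
Log2 fold change of the 7 genes, GCE/GCE against GCE/+, with edgeR's estimate and 95% interval in black, DESeq2's estimate as a diamond and the 4 edgeR estimates with 1 sample left out as ticks. The intervals of *Tbx4* (0.16 to 0.63) and *Tbx2* (0.16 to 0.56) lie above 0 before adjustment for multiple testing, and those of the other 5 genes include 0.

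The balance of forelimb and hindlimb genes was taken as the ratio of 2 genes' counts in 1 sample. Library size cancels in such a ratio, and gene length cancels when samples are compared. The ratio of *Tbx5* to *Tbx4* was 2.17 and 2.29 in the GCE/+ samples against 1.71 and 1.82 in the GCE/GCE samples. *Tbx5* thus made up 68.5% and 69.6% of the counts of both genes in GCE/+ cells (exact 95% binomial intervals 67.5% to 69.4% and 68.5% to 70.6%). In GCE/GCE cells it made up 63.2% and 64.5% (intervals 62.1% to 64.2% and 63.6% to 65.4%). These intervals cover counting error only. On the log2 scale the balance was 1.16 ± 0.05 in GCE/+ cells and 0.82 ± 0.06 in GCE/GCE cells (SD, n = 2), a difference of -0.34 (two-sided exact permutation test, p = 0.333, 0.444 adjusted over 4 balances). A p of 0.333 is the smallest that 2 samples against 2 can give.

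With the second hindlimb gene the difference had the other sign. The ratio of *Tbx5* to *Pitx1* was 2.33 and 2.77 in the GCE/+ samples against 2.92 and 2.98 in the GCE/GCE samples. The groups did not overlap, but the log2 difference of 0.22 was smaller than the gap between the GCE/+ replicates, 0.25 (exact permutation p = 0.333, adjusted 0.444). Between the hindlimb genes, the ratio of *Pitx1* to *Tbx4* was 0.933 and 0.827 in the GCE/+ samples against 0.588 and 0.611 in the GCE/GCE samples. This was the widest shift of the 3 ratios, a log2 difference of -0.55 against replicate gaps of 0.17 and 0.05 (exact permutation p = 0.333, adjusted 0.444). *Pitx1* accounted for 48.3% and 45.3% of the counts of both hindlimb genes in GCE/+ cells and for 37.0% and 37.9% in GCE/GCE cells. With 1 sample omitted at a time, the *Tbx5* to *Tbx4* difference ran from -0.38 to -0.29 and the *Pitx1* to *Tbx4* difference from -0.64 to -0.46. The *Tbx5* to *Pitx1* difference ran more widely, from 0.09 without GCE/+ replicate 1 to 0.34 without GCE/+ replicate 2. *Tbx4* also shifted against genes not used here as forelimb or hindlimb genes. The log2 differences were -0.49 for *Tbx3* to *Tbx4*, 0.42 for *Tbx4* to *Tbx15* and 0.39 for *Tbx4* to *Tbx18*, without overlap. The *Tbx2* to *Tbx4* ratio overlapped. Of all 21 pairs of the genes described here, 13 did not overlap, including all 10 with only 1 of *Tbx2* and *Tbx4*. Those 10 pairs reuse the values of *Tbx2* and *Tbx4*, which were already apart as single genes, so they add no separate evidence. Of the 10 pairs with neither gene, 3 did not overlap. Among all tested genes taken singly 38.4% did not overlap, and the share over pairs of other genes was not computed. Whether limb level had a part in the *Tbx4* ratios was not tested.

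A balance that used none of the 7 genes was taken from the HoxC cluster, whose genes are expressed in nested domains along the body axis. The summed counts of *Hoxc9*, *Hoxc10* and *Hoxc11*, of the hindlimb level, were divided by those of *Hoxc4*, *Hoxc5*, *Hoxc6* and *Hoxc8*. The ratio was 0.685 and 0.819 in the GCE/+ samples against 0.748 and 0.907 in the GCE/GCE samples. The groups overlapped, and replicate 2 was higher in either genotype (log2 difference 0.14, exact permutation p = 0.667, adjusted 0.667). Without GCE/GCE replicate 2 the difference was -0.0015.

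**Figure D4:**
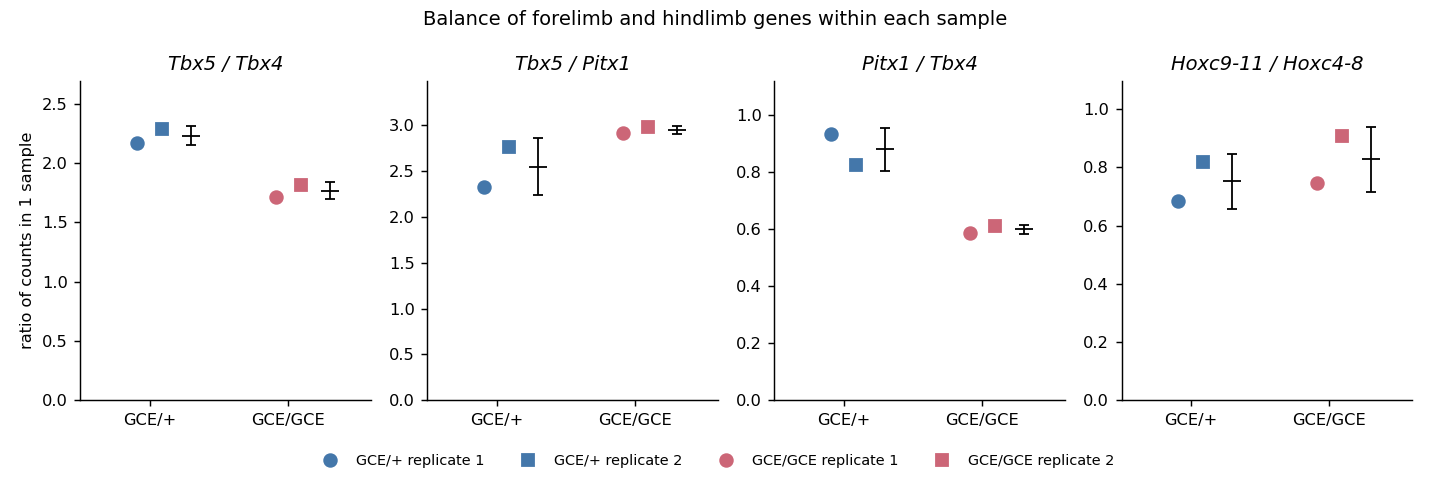
Ratio of counts within each sample for the forelimb gene over each hindlimb gene, for the hindlimb genes against each other, and for the summed *Hoxc9*, *Hoxc10* and *Hoxc11* counts over the summed *Hoxc4*, *Hoxc5*, *Hoxc6* and *Hoxc8* counts (y axes start at 0, circles replicate 1, squares replicate 2, black bars mean and SD of 2 ratios). The ratios of *Tbx5* to *Tbx4* and of *Pitx1* to *Tbx4* are lower in both GCE/GCE samples, that of *Tbx5* to *Pitx1* is higher, and the Hoxc ratios overlap.

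The replicates also differed among themselves. In GCE/GCE cells, replicate 2 exceeded replicate 1 by 18.9% for *Tbx3*, 15.8% for *Tbx4*, 22.8% for *Tbx5*, 24.2% for *Tbx18* and 20.3% for *Pitx1*. *Tbx2* differed by 0.444% and *Tbx15* by -5.79%. In GCE/+ cells the gaps went in both directions, from -20.1% for *Pitx1* to 13.9% for *Tbx3*.

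The sums of cartilage and macrophage markers did not overlap between the genotypes, and neither did *Tbx2* and *Tbx4*, which were not past the threshold in edgeR. Among all tested genes 38.4% did not overlap. The sums of mesenchyme markers, *Osr1* included, were also apart, at 16603 and 15487 CPM in GCE/+ against 14350 and 13001 CPM in GCE/GCE samples. *Col3a1* and *Col1a2* made up most of these sums. *Col3a1* had 9549 and 8787 CPM in the GCE/+ samples against 7716 and 6845 CPM in the GCE/GCE samples. Only *Col3a1* and *Osr1* were apart, while *Col1a2*, *Pdgfra*, *Prrx1*, *Twist1* and *Twist2* overlapped. The sums of epidermal markers were 25.4 and 28.7 against 32.2 and 31.0 CPM. Of these 9 markers, 4 were higher and 2 lower in both GCE/GCE samples, against 19.2% and 19.1% of all tested genes. *Krt18* was the most abundant of the 4, with 8.83 and 9.46 CPM in the GCE/+ samples against 14.3 and 12.7 CPM in the GCE/GCE samples. In GCE/+ replicates 1 and 2 the cartilage sums were 838 and 1245 CPM and the macrophage sums 294 and 303 CPM, where *Tbx4* had 46.4 and 41.8 CPM and *Tbx2* 29.6 and 30.0 CPM. In GCE/GCE replicates 1 and 2 the cartilage sums were 1794 and 1918 CPM and the macrophage sums 186 and 131 CPM, where *Tbx4* had 53.7 and 62.2 CPM and *Tbx2* 38.1 and 38.3 CPM. Between replicates, the higher cartilage sum went with the lower *Tbx4* value in GCE/+ cells and with the higher one in GCE/GCE cells. It went with the slightly higher *Tbx2* value in either genotype. The part of these cell types in the values of *Tbx2* and *Tbx4* was not tested.

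The other 11 T-box genes were low in these cells, with the exception of *Mga*, a T-box factor that also binds MAX. *Mga* had 140 and 159 CPM in the GCE/+ samples against 168 and 175 CPM in the GCE/GCE samples, with log2 fold change 0.20 (SE 0.09, edgeR adjusted p = 0.502). *Tbx1* had 2.87 and 2.91 CPM in the GCE/+ samples against 2.05 and 1.72 CPM in the GCE/GCE samples. Both GCE/GCE samples were lower, with a log2 fold change of -0.62 (SE 0.20) and an adjusted p of 0.262 in edgeR. *Tbx6*, *Tbx20*, *Tbx21*, *Tbx22*, *Tbr1*, *Eomes* and *T* were each below 1 CPM in all samples. *Tbx10* had 1 to 4 counts and *Tbx19* 0 counts in every sample, where 3 counts in the smallest library give 0.0576 CPM. None of the 9 that could be tested passed the threshold (edgeR, adjusted p of 0.1), and 1 of them, *Tbx1*, had an unadjusted p under 0.05. DESeq2 passed 0 of the 7 to which it gave an adjusted p. *Pitx3*, a relative of *Pitx1*, was below 1 CPM in all samples.

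Among genes of limb level, *Isl1*, an upstream regulator of the hindlimb field, had 8.41 and 11.1 CPM in the GCE/+ samples against 11.5 and 14.6 CPM in the GCE/GCE samples. Its log2 fold change was 0.42 (SE 0.18), with an unadjusted p under 0.05 and an adjusted p of 0.456 in edgeR. *Hoxc10*, the most abundant of the posterior HoxC genes by CPM, had 48.9 and 62.2 CPM in the GCE/+ samples against 54.1 and 59.6 CPM in the GCE/GCE samples, which overlap. *Hoxc9* and *Hoxc11* had log2 fold changes of 0.08 and -0.03. Of the anterior genes, *Hoxc4* and *Hoxc5* were lower in both GCE/GCE samples, by -0.12 and -0.09 on the log2 scale (SE 0.11 and 0.09), while *Hoxc6* and *Hoxc8* overlapped. None of the 8 genes passed the threshold in edgeR or in DESeq2, and *Isl1* alone had an unadjusted p under 0.05.

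Of 9 limb outgrowth genes listed with the T-box pathway, not all of them targets of *Tbx4* or *Tbx5*, 1 passed the threshold. *Fgfr2*, which encodes a receptor for fibroblast growth factors, rose from 70.4 and 83.8 CPM to 114 and 118 CPM, which do not overlap, with a log2 fold change of 0.59 (SE 0.10, edgeR adjusted p = 0.0413). *Fgf10*, the ligand gene that *Tbx4* and *Tbx5* activate in the limb bud, had 30.2 and 31.1 CPM in the GCE/+ samples against 24.3 and 25.9 CPM in the GCE/GCE samples. Both GCE/GCE samples were lower, and the log2 fold change was -0.29 (SE 0.10, 95% interval -0.51 to -0.07, with adjusted p of 0.282 by edgeR and 0.359 by DESeq2). *Sall4*, another target of *Tbx5*, was below 1 CPM in all samples. The median log2 fold change of the 9 genes was -0.18.

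Of 22 genes that pattern the limb axes, 21 could be tested and 1 passed in edgeR. *Bmp4*, a ligand of the bone morphogenetic protein family, had 53.8 and 52 CPM in the GCE/+ samples against 40.2 and 41.0 CPM in the GCE/GCE samples, with log2 fold change -0.38 (SE 0.08, with adjusted p of 0.0988 by edgeR and 0.0322 by DESeq2). *Bmp4* was not past the threshold when GCE/+ replicate 1 was left out, when 0 of the 21 passed. DESeq2 also called *Ptch1*, the Hedgehog receptor gene, with 52.7 and 73.3 CPM in the GCE/+ samples against 84.6 and 85.0 CPM in the GCE/GCE samples (with adjusted p of 0.267 by edgeR and 0.0983 by DESeq2). The median log2 fold change of the 21 genes was 0.01.

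The genes most like each limb identity gene were found by the root mean square difference of log2 CPM, centred on the mean over the 4 samples, among 11179 other genes whose mean was 5 CPM or more. For *Tbx4* these were *Gas2* (0.0155), *Dapk2* (0.0236) and *Crispld1* (0.0237), where *Tbx4* itself departed from its own mean by 0.214. *Gas2* had 185 and 163 CPM in the GCE/+ samples against 208 and 243 CPM in the GCE/GCE samples. For *Tbx5* they were *Ptrh2* (0.00772), *Tctex1d2* (0.00969) and *Sumo2* (0.013), and for *Pitx1* *Zwilch* (0.01), *Sdhaf1* (0.0113) and *2810428I15Rik* (0.0137). Likeness over 4 samples was common, since 182 genes lay within 0.05 of *Tbx5*, 56 within 0.05 of *Pitx1* and 19 within 0.05 of *Tbx4*.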

How the data were processed

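RNA from GFP-positive cells of 4 embryos, 2 per genotype, was analysed. Libraries were made with an unstranded TruSeq kit and read in 50-bp pairs. The authors aligned them to mm9 by TopHat2, obtained counts by HTSeq (intersection-strict, UCSC gene model) and deposited these raw counts per gene symbol without normalization. Tool versions are not given in the sources used here. Groups and replicate numbers came from the sample titles.

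The filterByExpr rule of edgeR kept 15645 genes, which were scaled by TMM and tested by the quasi-likelihood F test of edgeR 4.0.16 in R 4.3.3 (two-sided, Benjamini-Hochberg adjusted over all tested genes, threshold 0.1 from the study's methods). The SE was derived from the F statistic. The biological coefficient of variation was 0.107 and the prior degrees of freedom were 6.38. Alternatives were DESeq2 1.42.0, other scalings and filters, a replicate block, leaving out each sample, and gene length offsets, since log2 fold change rose with gene length across genes (Spearman rho 0.258). Replicates differed beyond counting noise (chi-square per degree of freedom 30.6 in GCE/+ and 25.8 in GCE/GCE). Scripts were tested on simulated data.

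Exon lengths and transcripts came from GENCODE M21 and gene positions from RefSeq, both GRCm38. None were converted from mm9, and 97.9% of symbols had a length. Ratios were log2 of counts with 0.5 added. The text names all 7 genes, every gene with a count on the lists of other T-box and Pitx genes and of limb-level Hoxc genes and *Isl1*, genes past the threshold on the outgrowth and patterning lists with *Fgf10* and *Sall4*, and 3 most similar genes for each of *Tbx5*, *Tbx4* and *Pitx1*. *Ptch1*, *Gas2* and the marker genes beyond these rules were named after their values were seen. Some items that this rule covers are not reported here. The genes and lists were chosen with earlier results of these data known.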

Additional observations from a re-analysis of the deposited data

How the results depend on the processing

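The replicate number of the labels served as a block in 1 alternative. Same-numbered samples had a correlation of deviations of 0.002 over 10276 genes. With 2 samples a group this value cannot show whether same-numbered samples shared a litter or a batch. With the replicate block 290 genes passed against 285 without it, 0 of the 7 genes passed, and the log2 fold changes of *Tbx2* and *Tbx4* were 0.36 and 0.39 with adjusted p of 0.193 and 0.219 (edgeR). The count of genes past the threshold was 279 with the older form of the quasi-likelihood fit (chosen after seeing the data), 508 with DESeq2, 127 without the filter on low counts, 130 at an adjusted p of 0.05, and 199 to 961 when each sample was left out, the highest without GCE/+ replicate 2 and 747 without GCE/GCE replicate 1. Of the 7 genes, 2 passed with DESeq2, 1 with gene length offsets and 0 to 1 when each sample was left out. *Tbx2* kept a log2 fold change of 0.34 to 0.37 over 15 alternatives and passed in 3 of them, with 0.36 in DESeq2 and with length offsets and 0.37 without GCE/+ replicate 2. *Tbx4* kept 0.28 to 0.49 and passed in 2, with 0.39 in DESeq2 and 0.49 without GCE/GCE replicate 1. The 5 genes near 0 changed sign in some settings. *Tbx18* was at -0.0084 with upper quartile scaling, -0.015 with length offsets and -0.024 with length offsets and the replicate block, and ran from -0.16 to 0.15 over the fits that omit 1 sample. Over those fits *Tbx5* ran from -0.093 to 0.20, *Tbx3* from -0.23 to 0.013, *Tbx15* from -0.079 to 0.013, *Pitx1* from -0.32 to 0.0028 and the Hoxc balance from -0.0015 to 0.28. The cause of these moves was not tested. DESeq2 called 2 limb axis patterning genes and 2 mesenchyme markers, and 1 gene each of the muscle, mural and epidermal lists. Leaving out each sample gave 0 to 5 axis patterning genes, 0 to 1 other T-box genes, 0 to 1 hindlimb genes, 8 to 10 cartilage, 3 to 9 macrophage, 0 to 2 muscle, 0 to 4 endothelial, 0 to 2 mural and 0 to 1 epidermal markers. The *Tbx5* to *Pitx1* balance ran from 0.09 without GCE/+ replicate 1 to 0.34 without GCE/+ replicate 2. With 2 samples a group, outlying samples could not be tested for, and the permutation test could not reach 0.05.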

Other observations

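The chromosomal neighbours of the T-box pairs were looked at after the values of *Tbx2* and *Tbx4* had been seen. Within 500 kb of the *Tbx2* and *Tbx4* pair, 5 other genes passed the filter on low counts, *Ppm1d*, *Bcas3*, *Brip1*, *Ints2* and *Med13*. Their log2 fold changes ran from -0.01 to 0.18 with a median of 0.03, and 0 of 5 passed an adjusted p of 0.1 in edgeR. *Ints2*, a subunit gene of the Integrator complex, was higher in both GCE/GCE samples, with 69.4 and 79.4 CPM in the GCE/+ samples against 81.3 and 87.6 CPM in the GCE/GCE samples. It was the only 1 of the 5 to do so, as did 19.2% of all tested genes, and its adjusted p was 0.603 (edgeR). Within 500 kb of the *Tbx3* and *Tbx5* pair, *Rbm19* and *AW549542* had log2 fold changes of -0.07 and 0.05.

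Of the patterning genes, 3 Hox genes are given here that were chosen after their values were seen. *Hoxd13*, a gene of the distal limb, had 18.3 and 6.64 CPM in GCE/+ replicates 1 and 2 and 7.41 and 11.4 CPM in GCE/GCE replicates 1 and 2. *Hoxa13*, likewise of the distal limb, had 1.59 and 0.688 CPM in the GCE/+ samples against 0.913 and 0.882 CPM in the GCE/GCE samples. *Hoxa11*, of the zeugopod level, had 33.2 and 23.4 CPM in the GCE/+ samples against 23.9 and 30.1 CPM in the GCE/GCE samples. *Pitx1* had its highest value, 43.3 CPM, in GCE/+ replicate 1, and its second highest, 38.0 CPM, in GCE/GCE replicate 2. The same samples held the highest and second highest values of *Hoxd13* and *Hoxa11*, while *Hoxa13* was second highest in GCE/GCE replicate 1.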
